A study of Danio rerio with 20 samples.

Results

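Among 16578 probe spots printed on a zebrafish oligonucleotide array, 50 gave a lower signal in DMSO100 embryos than in their partner in all 3 dye-swapped pairs that hold a usable DMSO100 pool. The partner was DMSO25, CONTROL or DMF100, a different one in each pair. A spot was taken when its log2 ratio of DMSO100 over the partner, averaged over the 2 arrays of a pair, was at or below -0.4 in each pair, and spots of 2 repeated or mitochondrial records were left out by name. A ratio in all 3 pairs was available for 3619 spots, called eligible probes here, so that 50 of 3619, or 1.38%, met the rule. The members were therefore chosen by the measured values of these 3 pairs, and their levels there are a description, with no test.

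The study exposed zebrafish embryos to dimethyl sulfoxide (DMSO) or dimethylformamide (DMF) and measured RNA of whole embryos at 48 h post fertilisation. The conditions were DMSO100 (DMSO at 0.1 ml/L), DMSO25 (DMSO at 0.025 ml/L), DMF100 (DMF at 0.1 ml/L), DMF25 (DMF at 0.025 ml/L) and CONTROL (no solvent). Each pool held the surviving embryos of 1 plate, with 20 exposed embryos at the start, and 5 plates were run per condition, of which 4 pools per condition were hybridised. RNA was amplified, labelled with Cy3 or Cy5, and hybridised in 10 pairs on 20 arrays with the dyes exchanged. Every pool occurs in 1 pair only, so the arrays give ratios between pools and no level of a single pool. Strain and genotype of the embryos were not used here.

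DMSO and DMF are polar solvents that carry poorly soluble chemicals into the water of fish embryo tests, where a solvent control is set beside an untreated control. At this stage the zebrafish embryo has a beating heart, circulating blood, segmented muscle, pigment and a patterned brain, and it still lives on yolk. RNA of a whole embryo mixes all of these tissues, so fewer cells of a type and less RNA per cell cannot be told apart. Spotted arrays compare both pools of a pair on the same spot, and exchanging the dyes lets a probe's preference for 1 dye cancel in the mean.

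The members carry GenBank records as names. Of the 50, 46 have a prefix used for expressed sequence tags, which are single reads from cDNA clones. The same prefixes name most eligible probes: BI 29.8%, AI 19.4%, AW 18.5%, BM 11.5%, BG 8.1% and BE 2.8% of them. None of the 50 could be paired with a gene symbol, against 16 of the 3619 eligible probes named by a RefSeq accession. They are therefore named by their records, with no gene, role or genome position, and markers of blood, muscle, lens, hatching gland, liver, yolk, skin, heart and nervous tissue could not be counted among them. The 50 names are distinct, and 1 of them is printed on a further spot, which had no ratio in all 3 pairs.

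The arrays differed in quality. The file of array 1 names the scan of array 17, and their raw log ratios correlated at 0.881, against at most 0.605 for the other 189 pairs of arrays; array 1 was left out, and with it the pair of DMSO100 replicate 1 with DMF25 replicate 2. In the scan batch of arrays 3 to 14, the median of all probe spots in the dimmer channel lay near the level of spots without a probe. Of these spots, 35.5% to 51.0% per array were without the lowest confidence grade. Over the eligible probes, the median of that channel ran between 1.45 and 6.59 times the empty spots. The dimmer channel held the same pool of a pair in both dye orientations. Whether the low signal belongs to that pool or to the channel of these arrays cannot be told apart. On array 7 the other pool, DMF25 replicate 4, was also low, at 1.79 times the empty spots over all probe spots. Among the 3 pairs of the rule, the pools in the dimmer channel were DMSO25 replicate 2 and DMSO100 replicate 3. Over all probe spots, the median signal of DMSO25 replicate 2 was 1.53 (Cy3) and 1.12 (Cy5) times that of empty spots. For DMSO100 replicate 3 it was 1.40 (Cy3) and 1.21 (Cy5) times. Over the eligible probes these medians were 4.91 and 1.45 for DMSO25 replicate 2, and 4.14 and 1.86 for DMSO100 replicate 3. The pair of DMSO100 replicate 4 with DMF100 replicate 3 belongs to another scan batch. Both of its pools stood at 3.46 to 12.8 times the empty spots over all probe spots. Scan batches are groups of arrays formed here by the start of their scan image names. Because the dim channel is Cy3 on arrays 3 to 8 and Cy5 on arrays 9 to 14, exchanged channels on some of them would turn ratios round, so each probe's dye effect in the other batch was set against both parts of these 6 pairs. Over the eligible probes it correlated (Pearson) at 0.33 to 0.60 with the part that follows the dye under the labels, and at -0.18 to 0.49 with the part that follows the pool. The dye part had the higher value in each of the 6 pairs, closest in DMSO25 replicate 1 over CONTROL replicate 1 (0.60 and 0.49), and the labelled channels were kept.

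In the pairs of the rule, the members' median log2 ratio was -0.66 for DMSO100 replicate 2 over DMSO25 replicate 2, where the eligible probes had a median of 0.14. It was -0.73 for DMSO100 replicate 3 over CONTROL replicate 4, against -0.18 for the eligible probes. For DMSO100 replicate 4 over DMF100 replicate 3 it was -0.75, against -0.09. Most members were only moderately lower: the mean over the 3 pairs had a median of -0.72, ran between -1.82 and -0.43, and was at or below -1 for 9 members. The lowest of a member's 3 ratios fell in the DMSO25 pair for 11 members, in the CONTROL pair for 20 and in the DMF100 pair for 19. The rule required a low ratio against every partner, so these counts only describe the members.

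The 2 arrays of a pair did not give equal values. With DMSO100 replicate 2 in Cy5 the members' median was -0.87, and with it in Cy3 it was -0.39. For DMSO100 replicate 3 these medians were -0.85 and -0.57, and for DMSO100 replicate 4 they were -0.78 and -0.69. The eligible probes had 0.04 and 0.26, -0.28 and -0.08, and -0.01 and -0.18 in the same order. The median gap between the 2 arrays for a member was 0.71 in the DMSO25 pair and 0.59 in the CONTROL pair. For an eligible probe it was 0.635 and 0.52. Both pairs lie in the scan batch with a dim channel. In the DMF100 pair the gap was 0.23, against 0.385 for an eligible probe. Of the 50 members, 35 were below 0 on all 6 arrays and 7 were at or below -0.4 on all 6.

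The member with the lowest mean was BI889937, which was low in every pair of the rule. Its dimmest signals there were 2.55 times the empty spots in DMSO100 replicate 3 and 4.94 times in DMSO25 replicate 2, both in Cy5. On the 2 arrays of each pair its log2 ratio was -2.70 and -0.20 for DMSO100 replicate 2 over DMSO25 replicate 2. It was -2.81 and -1.33 for DMSO100 replicate 3 over CONTROL replicate 4. It was -2.32 and -1.58 for DMSO100 replicate 4 over DMF100 replicate 3. All 6 values lay below 0, and its mean over the pairs was -1.82. In that last pair its amplitudes were 3398 (Cy5) and 4905 (Cy3) in DMSO100 replicate 4, and 13353 (Cy3) and 7820 (Cy5) in DMF100 replicate 3.

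AI793767 had the next lowest mean, -1.69, and it rested on 1 spot. Its 2 arrays for DMSO100 replicate 2 over DMSO25 replicate 2 gave -0.58 and -7.58. On the lower of these arrays its amplitude was 41.2 in DMSO100 replicate 2 and 18173 in DMSO25 replicate 2, with a BlueFuse confidence of 0.17, and on the other array 579 and 1228. The remaining pairs gave -1.14 and 0.25 for DMSO100 replicate 3 over CONTROL replicate 4, and -0.55 and -0.51 for DMSO100 replicate 4 over DMF100 replicate 3. The value of -1.14 has DMSO100 replicate 3 at 0.774 times the median of empty spots, a signal not set apart from background. BM024216 and AI974174 also had their lowest value in that pair. Over DMSO25 replicate 2, BM024216 gave -0.39 and -3.83 and AI974174 gave -0.49 and -2.49, in each case with the lower value on the array that is lowest for AI793767. Elsewhere BM024216 lay between -0.83 and -0.33. AI974174 lay between -1.75 and 0.09.

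BI877594, AI415904 and BI877633 were below 0 on every array, but 1 pool was close to empty spots in the pairs with CONTROL and with DMSO25. BI877594 gave -0.64 and -1.24, then -1.46 and -1.26, then -1.35 and -0.98 in the pairs with DMSO25, CONTROL and DMF100. AI415904 gave -1.11 and -0.91, -0.26 and -1.34, and -1.35 and -1.79 in the same order. BI877633 gave -1.01 and -0.30, -1.37 and -1.62, and -1.16 and -0.88. In DMSO100 replicate 3 their Cy5 amplitudes were 0.888, 0.982 and 0.982 times the median of empty spots, so the size of those ratios is limited by background. Their Cy3 amplitudes in that pool were also close to it, at 1.52, 1.05 and 1.655 times the median of empty spots. In DMSO25 replicate 2 their Cy5 amplitudes were 1.59, 1.48 and 1.02 times it. On that array DMSO100 replicate 2 stood at 22.2, 26.0 and 27.3 times the empty spots of its own channel. With the partner so near background, neither the size nor the direction of the ratios on that array is secure. BE605628 was the brightest of the 8 lowest members. It gave -1.18 and -0.59, -1.60 and -0.34, and -0.82 and -2.27, and its mean of -1.13 became -0.51 in the authors' deposited log2 ratios.

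The members that met the threshold on each of the 6 arrays, named after their values were seen, were BI877594, BI880731, Y09669, BM026015, BI982278, BM026390 and AI585102. Their means over the 3 pairs ran between -1.16 and -0.59. The highest single-array value among them was -0.42, in BI880731.

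The threshold divides a continuous range. Just inside it, the highest of the 3 ratios was -0.404 in AL718444, -0.406 in AI641141 and -0.407 in BM071208. Just outside it, BI428480 had -0.399, BM070575 had -0.388 and BI673745 had -0.384.

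To read the values in a pair that did not choose the probes, the same threshold was applied to 2 of the 3 pairs and the ratios were taken in the remaining one. This check was added after the data were seen. Choosing on the pairs with CONTROL and DMF100 gave 414 probes. In DMSO100 replicate 2 over DMSO25 replicate 2 these had a median of 0.04 (quartiles -0.20 and 0.33), and 50 of them, or 12.1%, were at or below -0.4, beside 12.0% of all eligible probes. Choosing on the pairs with DMSO25 and DMF100 gave 126 probes, of which 39.7% were at or below -0.4 in DMSO100 replicate 3 over CONTROL replicate 4, beside 30.0% of eligible probes. Choosing on the pairs with DMSO25 and CONTROL gave 93 probes, of which 53.8% reached -0.4 in DMSO100 replicate 4 over DMF100 replicate 3, beside 21.5%, with a median of -0.44 against -0.09 for the eligible probes. The probes that reached -0.4 in the remaining pair are the 50 members in each case. The shares therefore vary only with the number of probes that the 2 choosing pairs passed. Their differences from the background were not tested. Over all eligible probes the ratios of the DMSO25 and CONTROL pairs correlated at 0.09 (Pearson) and -0.03 (Spearman). Those of the DMSO25 and DMF100 pairs correlated at 0.49 and 0.35, and those of the CONTROL and DMF100 pairs at 0.45 and 0.41. Each is over 3619 probes that share arrays and are not independent.

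DMSO100 replicate 1 was not used by the rule and could be read on array 2 alone, in 1 dye orientation, for 23 members. Array 2 belongs to a scan batch of its own. Each probe's dye effect was taken from the 6 pairs without DMSO100, which lie in other scan batches. Between those batches it correlated at 0.33 to 0.60 (Pearson), and how well it applies to array 2 was not tested. After it was removed, the members' median log2 ratio of DMSO100 replicate 1 over DMF25 replicate 2 was 0.10, with 9 of 23 below 0, beside a median of 0.04 and 45.9% below 0 over the eligible probes. Without the removal the median was -0.34 with 17 of 23 below 0, so the sign depended on this step. BI889937 had -0.96 and BI877633 had -0.67 after removal, AI793767 had -0.06 and BM024216 had 0.02. This array had the fewest usable spots, 30.0% against at least 35.5% on arrays 3 to 20.

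The 6 pairs without a DMSO100 pool took no part in the choice. In most of them the members lay mainly on 1 side of 0, and the side differed between pairs. In DMF100 replicate 1 over CONTROL replicate 3, 49 of 50 members were below 0, with a median of -0.34, quartiles of -0.63 and -0.15 and a range of -1.34 to 0.03, while 50.4% of eligible probes were below 0. In DMF100 replicate 2 over DMF25 replicate 3, 42 of 48 were above 0, with a median of 0.30 and quartiles of 0.12 and 0.55, beside 50.4% of eligible probes above 0. Of the 48 members measured in both of these pairs, 41 were below 0 in the first and above 0 in the second, as were 30.1% of eligible probes. Both pairs belong to the scan batch in which neither pool lay near the empty spots.

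The other 4 pairs lie in the batch with a dim channel. DMSO25 replicate 1 over CONTROL replicate 1 gave a members' median of 0.37, with 41 of 48 above 0, beside 66.8% of eligible probes. DMF25 replicate 1 over CONTROL replicate 2 gave 38 of 50 above 0, beside 47.1%. DMSO25 replicate 3 over DMF25 replicate 4 gave 30 of 43 above 0, beside 37.6%. DMF100 replicate 4 over DMSO25 replicate 4 gave a median of 0.09, with 26 of 44 above 0, beside 55.5%. The last of these was close to the eligible probes, and the part of dim signal in these values was not tested.

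Single members showed how wide this variation was. BI889937 gave -1.34 in DMF100 replicate 1 over CONTROL replicate 3 and 1.57 in DMF100 replicate 2 over DMF25 replicate 3. BI877594 gave -1.21 and 1.57 in these pairs, AI415904 -1.01 and 1.06, and BI877633 -0.63 and 0.79. These 4 records thus differed between pools without DMSO100 by 0.63 to 1.57 in size, beside means of -1.82 to -1.06 in the pairs that chose them. AI793767 gave -0.07 and -0.17, BM024216 -0.11 and 0.10, and AI974174 -0.10 and 0.47, smaller in size than their means in the DMSO100 pairs. Those means include 1 array of DMSO100 replicate 2 over DMSO25 replicate 2, at -7.58, -3.83 and -2.49. In the pairs with CONTROL and DMF100 the 3 records gave -0.44 and -0.53, -0.58 and -0.49, and -1.26 and -0.43. BE605628 gave -0.75 and -0.15, and it was 1.07 in DMSO25 replicate 1 over CONTROL replicate 1. Across the 50 members, the mean over the DMSO100 pairs and the ratio of DMF100 replicate 1 over CONTROL replicate 3 correlated at 0.51 (Pearson) and 0.55 (Spearman), a description over probes that share these arrays.

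The same relation ran through the eligible probes. Over 3607 of them, the mean of the 3 DMSO100 pairs correlated at 0.65 (Pearson) with DMF100 replicate 1 over CONTROL replicate 3. Over 3581 it correlated at -0.47 with DMF100 replicate 2 over DMF25 replicate 3. The remaining pairs without DMSO100 gave weaker values. These were -0.28 for DMF25 replicate 1 over CONTROL replicate 2 and -0.27 for DMSO25 replicate 3 over DMF25 replicate 4. They were -0.06 for DMSO25 replicate 1 over CONTROL replicate 1 and -0.03 for DMF100 replicate 4 over DMSO25 replicate 4. These pairs share no pool with the pairs of the rule. The 87 probes that were at or above 0.4 in all 3 DMSO100 pairs lay on the opposite side. Of these, 83 of 86 were above 0 in DMF100 replicate 1 over CONTROL replicate 3, with a median of 0.50, and 75 of 85 were below 0 in DMF100 replicate 2 over DMF25 replicate 3, with a median of -0.32.

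Because every condition met every other on 1 pair, a contrast against CONTROL can be summed along 3 routes that share no pool. For DMF100 over CONTROL, the members' median was -0.34 on the direct pair, with 49 of 50 below 0. Through DMF25 it was 0.54, with 42 of 48 above 0, and through DMSO25 it was 0.29, with 35 of 43 above 0. The eligible probes had medians of 0.00, -0.02 and 0.21 on these routes, and 65.3% of them were above 0 on the last one. For DMSO25 over CONTROL the members gave 0.37 on the direct pair, 0.44 through DMF25 and -0.50 through DMF100, beside 0.16, -0.13 and -0.05 for the eligible probes. For DMF25 over CONTROL they gave 0.29 through DMSO25 and -0.60 through DMF100, and 38 of 50 were above 0 on the direct pair. The eligible probes had 0.27, -0.01 and -0.03 on these routes, so the members' value through DMSO25 was near that of all probes. In each contrast the route with the opposite sign was the 1 that included DMF100 replicate 1 over CONTROL replicate 3. Routes of different contrasts reuse the same pairs, so these opposite signs are not separate observations.

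A linear model with 1 value per pair was fitted to the 6 pairs for all 4484 probes with at least 5 ratios, 47 members among them. Its residual spread, which counts what the condition labels leave unexplained, was 0.47 (median residual SD, log2) for the members and 0.28 for the eligible probes, and 25 of 47 members lay above the upper quartile of the eligible probes, 0.40. No member passed the test in any contrast: 0 of 47 for DMSO25, DMF25 or DMF100 minus CONTROL and 0 of 47 in the F test over the 4 conditions (limma, Benjamini-Hochberg over all probes tested). The background was equally 0.0% of 4484 probes in each, with smallest adjusted p of 0.393, 0.395, 0.999 and 0.404. At an unadjusted p under 0.05 there were 237, 354 and 37 probes for the 3 contrasts, with 2, 2 and 0 members among them. The members' median estimates were 0.16 for DMSO25, -0.05 for DMF25 and 0.03 for DMF100 minus CONTROL. For DMSO25, 34 of 47 members were above 0, beside 50.5% of eligible probes and an eligible median of 0.00. For DMF25, 23 of 47 were above 0, beside 50.6%, and for DMF100, 27 of 47, beside 52.7%.

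In the fit of the 9 pairs that includes the pairs of the rule, 0 of 47 members were called for DMSO100 minus CONTROL, and the background was 0.274% (10 of 3652 probes, all of them higher; 452 at an unadjusted p under 0.05). The members' estimates ran between -1.91 and -0.32, with a median of -0.64. These pairs chose the members, so the values only describe them. The 10 calls over all probes became 0 with a replicate block and 0 after median centring. When DMF100 replicate 2 over DMF25 replicate 3 was left out, 8 of 3669 probes were called, among them 1 member, BI889937, which was chosen on pairs of the same fit.

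In Cy5, 10 of the 50 members stood above 2 times the empty spots in DMSO100 replicate 3. Their median was 1.34 times there, against 1.86 times for the eligible probes. The rule chose members by low ratios on this array, so a low DMSO100 signal is partly set by the choice. On the same array the members' median in CONTROL replicate 4 was 42.0 times, against 38.9 times. In DMSO25 replicate 2 in Cy5, 14 of 50 members stood above 2 times, with a median of 1.43 times against 1.45. The same pools were brighter in Cy3. There 32 of 50 members stood above 2 times in DMSO100 replicate 3, with a median of 2.76 times against 4.14. For DMSO25 replicate 2 in Cy3 it was 49 of 50, with a median of 4.60 times against 4.91. The share of eligible probes above 2 times was not counted. In both channels together, the members' median brightness percentile among the eligible probes ran between 31.5 and 57.5 over the arrays. Of the members, 11 lay above the upper quartile and 15 below the lower one. They lay in 30 of 48 print blocks, with at most 5 in 1 block (block 8, which held 2.1% of eligible probes). Records with the prefix AI made up 30.0% of the members and 19.4% of eligible probes, and those with BG 2.0% and 8.1%; these shares were not tested.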

How the data were processed

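The scanner files give a spot intensity (amplitude) per channel from BlueFuse 3.3 or 3.6, per the file headers, with a confidence grade and no background column; how the authors made the deposited log2 ratios of the value table is not given in the sources used here. Per array, log2 of Cy5 over Cy3 was centred on its median over 16578 probe spots without the lowest grade (confidence below 0.1), signs were turned one way, and both orientations were averaged per pair. For tests the ratios were normalized by loess (span 0.3, 4 iterations) and fitted with limma 3.58.1 in R 4.3.3 (lmFit, eBayes; 3 residual degrees of freedom for 6 pairs, 5 for 9), requiring 5 of 6 or 8 of 9 ratios, with calls at an adjusted p (Benjamini-Hochberg) below 0.05. The code of the fit was tried on simulated ratios with known changes and independent noise. How many changes the fit can find in the real pairs is not reported here. Pools came from separate plates of 1 fish stock. The members, lists and comparisons were chosen with earlier results of these data known. Named probes were the 8 members of lowest mean, members called in the 6-pair tests (0) or paired with a symbol (0), and 3 probes on each side of the threshold; the members that met it on every array were named after their values were seen. Names were looked up in NCBI RefSeq tables. The number of arrays limits the precision.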

Additional observations from a re-analysis of the deposited data

How the results depend on the processing

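The member count of 50 depended on the rule and processing. It was 109, 26 and 17 at thresholds of -0.3, -0.5 and -0.6, 7 when each array had to pass, 144 with low-confidence spots kept (5 members among them) and 151 after empty-spot background was subtracted (26 members among them). It was 69 after loess (31 members among them), 44 after print-tip loess (24) and 45 in the authors' deposited log2 ratios (24). Loess put the eligible medians of the 3 DMSO100 pairs at 0.02, -0.07 and 0.00, and all 50 members stayed below 0 in all 3 pairs, against 49 after print-tip loess, 47 in the authors' ratios, 37 after subtraction and 23 with low-confidence spots. With low-confidence spots kept, the eligible medians themselves were 0.86, -0.94 and -0.11 in these pairs. After subtraction they were -0.27, 0.04 and -0.09. The counts under these settings therefore include a shift that the eligible probes share. On the array of DMSO100 replicate 1 the median was 0.10, with -0.34 without dye removal, -0.09 in the authors' ratios and 0.62 with low-confidence spots. In DMF100 replicate 4 over DMSO25 replicate 4 it was 0.09, 0.60 with low-confidence spots and -0.001 after subtraction. In DMSO25 replicate 3 over DMF25 replicate 4 it was 0.16, and -0.08 with low-confidence spots. The medians in DMF100 replicate 1 over CONTROL replicate 3 (-0.57 to -0.30) and DMF100 replicate 2 over DMF25 replicate 3 (0.28 to 0.42) kept their sign under all alternatives run, 2 of them added after the data were seen. Leaving out 1 pair gave 0 to 21 calls for DMSO25, 0 to 14 for DMF25, 0 to 1 for DMF100 and 0 to 34 in the F test, the highest of DMSO25, DMF25 and the F test without DMF100 replicate 4 over DMSO25 replicate 4, with 0 members among the calls. For DMSO100 minus CONTROL the 10 calls became 0 after median centring, 2 with all 10 pairs, and 0 to 19 without 1 pair (0 without DMSO100 replicate 4 over DMF100 replicate 3, 19 without DMSO100 replicate 3 over CONTROL replicate 4). With a replicate block it was 0, and for DMSO25 and DMF100 the replicate block also gave 0; DMF25 and the F test could not be fitted with it. Pool levels cannot be estimated, so whether equal numbers pair the pools could not be checked. After subtraction the means of AI793767, BI877594, AI415904 and BI877633 over the DMSO100 pairs were -3.79, -3.13, -3.53 and -2.29, beside -1.69, -1.16, -1.13 and -1.06. Subtracted amplitudes below 1 were set to 1. In Cy5 these members had DMSO100 replicate 3 below the median of empty spots, so its amplitude was set to 1 there. The size of their means after subtraction therefore depends on this floor. The causes were not tested. On arrays 3 to 14 the members' median in the dimmer channel ran between 1.34 times the empty spots (array 11) and 9.25 times (array 6). How far signal near the empty spots limits the ratios of each of these arrays was not tested.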

Other observations

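After each array was centred on its median, the ratio of Cy5 over Cy3 in most members lay below that of the median probe. In the 6 pairs without DMSO100, the part of the log2 ratio of Cy5 over Cy3 that follows the dye and not the pool had a median of -0.15 over 49 members, with 34 below 0. Over 3499 eligible probes the median was 0.00 with 50.1% below 0. This part cancels in a pair's mean, but not on the single array of DMSO100 replicate 1. On the 6 arrays of the rule, the median BlueFuse confidence of a spot was 0.45 for the members and 0.52 for the eligible probes.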
